A study of Mus musculus with 4 samples.

Results

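The NF-κB subunits, their inhibitors and the related kinase Ikbke were followed in tumour-derived mammary cancer cells from mice. The 10 genes were chosen by name, and every non-control probe that the array design names after 1 of them was taken, which gave 14 probes of 39429 and 10 gene names of 31829. For a gene with more than 1 probe, the probe with the highest mean signal gave the gene's value, with the rest reported alongside. The MMTV-Neu tumours from which the cells were derived arise because a viral promoter, active chiefly in mammary epithelium, drives Neu (Her2, Erbb2), a receptor tyrosine kinase oncogene. The arrays of 1 group were labelled Pak1-/-, from mice lacking the p21-activated kinase Pak1, and those of the other Pak1+/+, with 2 arrays in each group. Both groups carried the Neu transgene, were grown in low calcium medium with 5% horse serum, and were deprived of serum for 3 h and then given EGF for 15 min, so that no untreated sample is compared here. The series design states that the arrays of a group came from cells of different tumours.

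NF-κB is a family of transcription factors that bind DNA as dimers of the subunits Nfkb1 (p105, cut to p50), Nfkb2 (p100, cut to p52), Rel (c-Rel), Rela (p65) and Relb. In resting cells the dimers are held in the cytoplasm by the IκB inhibitors Nfkbia (IκBα), Nfkbib (IκBβ) and Nfkbie (IκBε). Signals from cytokine and pattern receptors activate the IκB kinase (IKK) complex, which marks the inhibitors for destruction, and the freed dimers then switch on genes that include Nfkbia, Nfkbie and Tnfaip3 themselves. Tnfaip3 (A20) edits ubiquitin chains and shuts the pathway off, and Ikbke (IKKε) is an IKK-related kinase that also acts downstream of nucleic acid sensors. In mammary epithelium the pathway takes part in gland development and in inflammation, and IKBKE has been described as a breast cancer oncogene.

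The sequences below show what the arrays measured for the genes on which the results turn. Each probe was a 60-base oligonucleotide, written 5′ to 3′ in lower case as the scanner files give it, with its span on mm9. The probes of Nfkbia (chr12:56590945-56591440, minus strand), of Nfkb2 (chr19:46386146-46386285, plus strand) and the second probe of Nfkbib (chr7:29545252-29546647, minus strand) covered 496, 140 and 1396 bases of genome with 60 bases of sequence. They therefore crossed at least 1 exon junction. The probes of Nfkb1 (chr3:135254550-135254609, minus strand) and the brightest of Nfkbib (chr7:29544160-29544219, minus strand) were unbroken. For Nfkbie (chr17:45700000-45700059, plus strand) and Ikbke (chr1:133151809-133151868, minus strand), the genes with the largest rise and the only fall, the first 30 bases are shown.
Nfkbia, A_51_P295192: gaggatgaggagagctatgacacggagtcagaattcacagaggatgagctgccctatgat
Nfkbib, A_55_P1989733: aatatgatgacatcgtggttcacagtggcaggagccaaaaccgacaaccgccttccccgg
Nfkbib, A_66_P120882: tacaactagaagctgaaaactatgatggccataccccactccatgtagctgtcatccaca
Nfkb1, A_55_P1968743: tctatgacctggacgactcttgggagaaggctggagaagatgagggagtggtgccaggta
Nfkb2, A_51_P454217: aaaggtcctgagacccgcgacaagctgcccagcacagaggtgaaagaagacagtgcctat
Nfkbie, A_51_P235123: ggtcatgcacgaagaaggagaagaaataaa
Ikbke, A_51_P222280: tcacaaggcactcagaagcaatagaaacat

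Pak1 itself served as the check of the labels. Its 1 probe read 12.21 and 12.25 normalized log2 units on the arrays labelled Pak1-/- and 12.04 on both arrays labelled Pak1+/+ (adjusted p = 0.070 in limma). The transcript was therefore not lower where the labels say the gene is absent, the part of the gene that was deleted is not given in the sources used here, and every direction below is that of the labels. All 4 arrays lay on 1 slide read in 1 scan, with the arrays of a group side by side, so that slide position and genotype cannot be told apart. The median spot signal was 322 to 331 and the median local background 39.0 to 42.0. Of 7 epithelial markers, 6 were well above background on all 4 arrays, among them Krt8 and Krt18, and Krt19 was so on 3. Their summed signal was 19.92 to 19.95 with the label Pak1-/- against 19.48 with Pak1+/+, and 5 were higher in the former, Krt14 (2.83), Cdh1 (1.19), Krt8 (0.57), Krt5 (0.50) and Krt18 (0.27), where 22.8% of all genes tested were. Epcam (−0.23, adjusted p = 0.058) and Krt19 (−0.64, adjusted p = 0.17) pointed the other way and did not pass. Of 12 leukocyte markers, 6 were well above background on all 4 arrays and 4 (Ms4a1, Lyz2, Tyrobp and Laptm5) on none. The summed signal of the list was 16.70 and 16.89 in the arrays labelled Pak1-/- against 17.61 and 17.72, to which Cd14 (−1.70) and Itgam (0.49, adjusted p = 0.11) added most signal. Ptprc (−0.45) and Adgre1 (−1.05) were also lower. With Cd14, 3 of the 6 tested were lower and 0 higher, where 28.2% of all genes tested were lower. Cd3e (0.25, adjusted p = 0.086), Csf1r (0.12, adjusted p = 0.58) and Itgam pointed the other way and did not pass. Of 8 stromal and endothelial markers, 5 were well above background on all 4 arrays and 2 (Col3a1 and Dcn) on none, with sums of 13.42 to 13.49 against 13.27 to 13.51 to which the first probe of Kdr, which did not pass (0.043, adjusted p = 0.78), added most signal. Col1a1 was higher (1.12, adjusted p = 0.0051). A second probe of Kdr was not well above background on the arrays labelled Pak1+/+ and was at least 2.17-fold higher on the others. The interferon-induced genes Irf7, Isg15, Ifit1, Oas2, Usp18, Mx1, Ifih1 and Ddx58 had a summed signal of 18.91 to 19.01 against 13.98 to 14.20. The part of these marker differences in the values below was not tested. In bulk RNA, fewer cells of a type and less RNA per cell cannot be told apart.

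The first question was whether the NF-κB genes differed between the groups. The inhibitors Nfkbie, Nfkbia and Tnfaip3 and the subunits Rela and Relb were higher in the arrays labelled Pak1-/-, and the kinase Ikbke was lower. Nfkb1, Nfkb2 and Nfkbib did not pass the threshold, and Rel was too dim to test. In all, 5 of the 9 tested genes were higher, where 22.8% of all genes tested were called higher, and 1 was lower, where 28.2% were. Calls in either direction were made for 6 of the 9, against 51.0% of the 21961 genes tested, so the share called was near the background. Over probes, 5 of the 13 tested were higher, against 23.3% of all probes, 2 were lower, against 28.6%, and 7 passed in either direction, against 51.9%. For 8 of the 9 genes both arrays of a group lay beyond both of the other, against 77.6% of all genes. The median log2 difference of the 9 genes was 0.28, against −0.055 over all genes, and their median absolute difference was 0.52 against 0.32. Without either of the arrays labelled Pak1+/+ the count of higher genes was 3, since Relb and Tnfaip3 no longer passed. All values are normalized log2 intensities of a probe, and levels of different probes cannot be compared with each other.

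**Figure D1:**
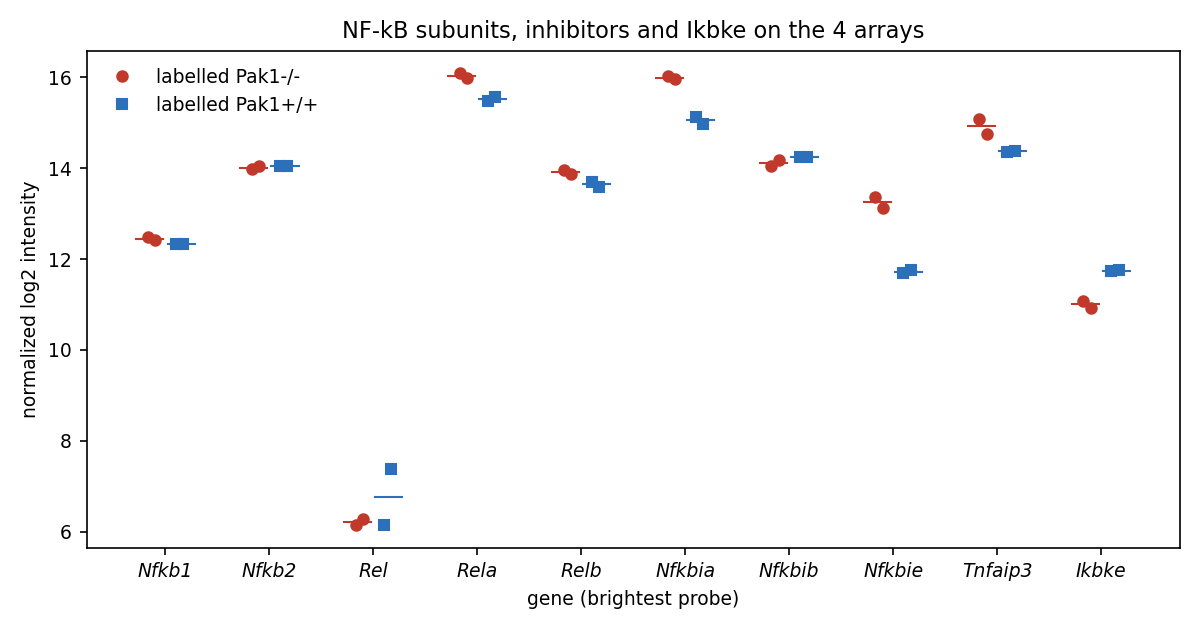
Normalized log2 intensity (y axis) of the brightest probe of each of the 10 genes (x axis) on each of the 4 arrays: red circles are the 2 arrays labelled Pak1-/-, blue squares the 2 labelled Pak1+/+, and short lines the group means. The groups lie farthest apart for Nfkbie (13.36 and 13.13 against 11.69 and 11.75), and Rel lies near background on all but 1 array.

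Among the IκB inhibitors, Nfkbie changed most. IκBε is an inhibitor that is itself induced by NF-κB and acts later than IκBα. Its probe gave 13.36 and 13.13 under the label Pak1-/- and 11.69 and 11.75 under Pak1+/+. Both arrays of the first group lay above both of the second, and the gap between groups was far wider than the gaps of 0.23 and 0.066 within them. The means, 13.25 ± 0.16 and 11.72 ± 0.05 (SD, n = 2 each), were 1.53 log2 units apart (SE 0.10, adjusted p = 0.00069 in limma), or 2.89-fold. Of all genes tested, 94.0% had a smaller absolute difference.

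Nfkbia followed. IκBα is the main inhibitor of Rela-containing dimers and an early transcriptional target of the pathway. Its probe stood at 16.02 and 15.96 in the arrays labelled Pak1-/- and 15.12 and 14.98 in those labelled Pak1+/+. No spot of the 14 probes was saturated, although the highest raw signal reached 64984. The groups did not overlap, and the log2 difference was 0.94 (SE 0.08, adjusted p = 0.0013), which is 1.92-fold. The probe printed above crosses an exon junction, so it measures spliced transcript.

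Tnfaip3 encodes A20, a deubiquitinase and ubiquitin ligase that limits signalling from the TNF receptor. It stood at 15.08 and 14.76 with the label Pak1-/- and at 14.36 and 14.39 with Pak1+/+. The groups did not overlap, but the 2 arrays labelled Pak1-/- were 0.33 apart, the widest replicate gap among the 9 tested genes. The log2 difference was 0.55 (SE 0.13, adjusted p = 0.021), or 1.46-fold. It did not pass without Pak1+/+ replicate 1 (0.54, adjusted p = 0.071) or Pak1+/+ replicate 2 (0.56, adjusted p = 0.064; range 0.0093 to 0.071 over the alternatives).

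Nfkbib did not pass by its brightest probe. IκBβ is known for weaker induction by NF-κB than IκBα and IκBε. Its brightest probe read 14.04 and 14.17 in the arrays labelled Pak1-/- and 14.24 and 14.25 in those labelled Pak1+/+. The log2 difference of −0.14 did not pass the threshold (95% interval −0.35 to 0.070, adjusted p = 0.21). The junction-crossing probe gave −0.18 (adjusted p = 0.19). The third probe (A_55_P2051666, chr7:29543270-29543329) was much dimmer, at 8.47 and 8.39 against 8.68 and 8.68, and was lower by a log2 difference of −0.24 (adjusted p = 0.043). All 3 probes pointed down, and only the dimmest passed.

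Of the 4 tested subunits, Rela changed most. Rela (p65) carries a transactivation domain and pairs mainly with p50. Its probe (chr19:5648070-5648129, plus strand) read 16.09 and 15.97 for Pak1-/- against 15.47 and 15.56 for Pak1+/+. The groups did not overlap, with replicate gaps of 0.11 and 0.088. The log2 difference was 0.52 (SE 0.08, adjusted p = 0.0068), or 1.43-fold.

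Relb, the subunit that pairs with p52 in the non-canonical pathway, was higher by less. Its brightest probe (chr7:20191722-20191781) read 13.97 and 13.88 against 13.71 and 13.59, so that the log2 means differed by 0.28 (SE 0.08, adjusted p = 0.043). The second probe shares 9 bases of genome with the first. It read 13.51 and 13.38 against 13.24 and 13.16 and did not pass (0.24, adjusted p = 0.062). Neither pair of groups overlapped, yet the difference of the brightest probe lost its call under 10 of 16 alternatives. These included leaving out any 1 array, where the adjusted p was 0.073 to 0.20.

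The subunits that are made as precursors, Nfkb1 and Nfkb2, did not pass the threshold. The brightest Nfkb1 probe read 12.48 and 12.41 in the arrays labelled Pak1-/- and 12.33 on both labelled Pak1+/+. Its log2 difference of 0.11 did not pass (95% interval −0.069 to 0.30, adjusted p = 0.23). A second probe 6869 bases downstream (chr3:135247621-135247680) read 11.69 and 11.41 against 11.20 and 11.32, and its difference of 0.29 did not pass either (adjusted p = 0.11). Nfkb2 read 13.98 and 14.05 against 14.04 and 14.04, and was the only tested gene of the 9 whose groups overlapped. Its difference was −0.033 (95% interval −0.22 to 0.15, adjusted p = 0.72), with a sign that turned under cyclic loess normalization (0.073) and without Pak1-/- replicate 1 (0.0021).

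Rel, the subunit best known from lymphocytes, had 1 probe (A_51_P187461), for which the files place 15 of the 60 bases (chr11:23641729-23641743). It was not well above background on 3 of the 4 arrays. It read 6.15 and 6.27 in the arrays labelled Pak1-/- and 6.14 and 7.38 in those labelled Pak1+/+, and only the last was well above background. The gap of 1.24 between the replicates labelled Pak1+/+ exceeded the difference between the group means, and no fold is given.

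Ikbke was the only one of the 9 genes that was lower. Its probe gave 11.08 and 10.93 for the Pak1-/- label and 11.73 and 11.76 for the Pak1+/+ label. The groups did not overlap, with replicate gaps of 0.15 and 0.032. The log2 difference was −0.74 (SE 0.08, adjusted p = 0.0025), which is 1.67-fold. Of all genes tested, 10.5% had a lower difference, and 78.8% had a smaller absolute difference. By absolute size that share was 85.5% for Nfkbia, 69.2% for Tnfaip3, 66.9% for Rela and 44.6% for Relb.

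**Figure D2:**
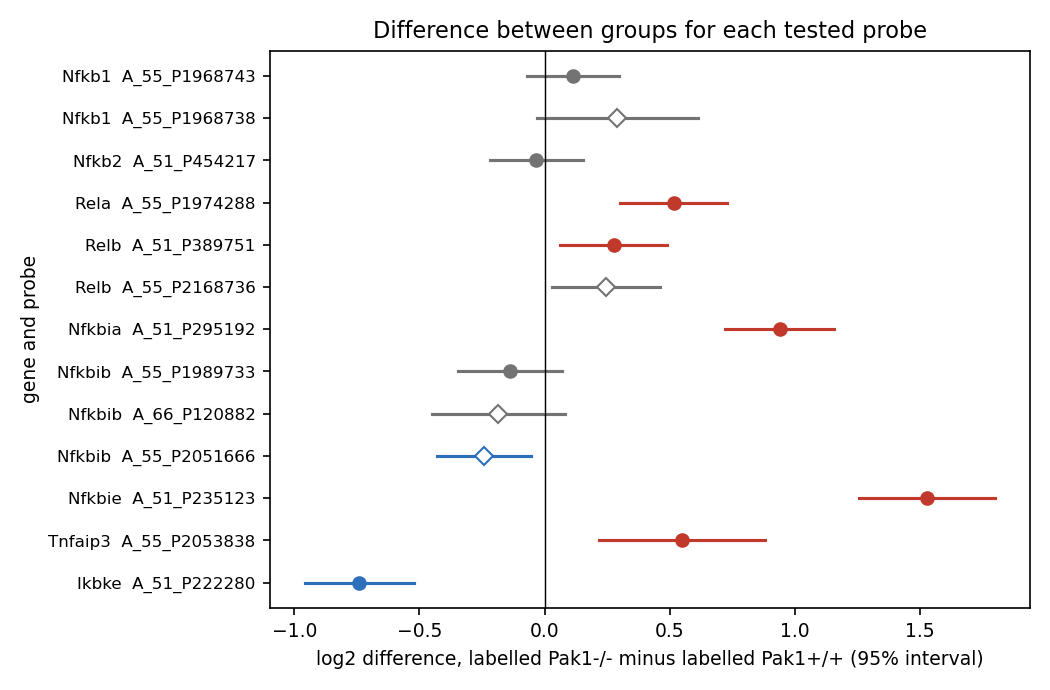
Log2 difference between the groups (x axis, labelled Pak1-/- minus labelled Pak1+/+) with its 95% interval from limma, for the 13 tested probes (y axis): filled circles are the brightest probe of a gene, open diamonds its other probes, red and blue those past the threshold upwards and downwards, and grey those not past it. Nfkbie at 1.53 and Nfkbia at 0.94 lie farthest right, and Ikbke at −0.74 farthest left.

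The promoters of the NF-κB genes, whatever their change, were read for the κB consensus, the site that NF-κB dimers bind (10 bases, both strands, overlapping matches merged). RefSeq windows of GRCm38.p6 were found for 8 of the 10 genes, and not for Nfkb1 and Relb. Within the 250 bases before the start site, 7 of the 11 windows of the NF-κB genes (63.6%) held the consensus, against 7.25% of 32851 windows of all genes, where a gene with several windows counts for each. Among known NF-κB targets and other signalling genes of the pathway, 38.7% of 31 and 24.5% of 49 windows held it. The 7 windows, of which 3 were of Nfkb2, belonged to 5 genes, namely Nfkbia, Nfkbie, Tnfaip3, Nfkb2 and Rel. Rela, Nfkbib and Ikbke had none in these windows. The windows of the 3 inhibitor genes that rose are printed with that of Nfkb2, which did not pass the threshold. Capitals mark the matches, and the last base printed lies next to the start site.
Nfkbia, chr12:55492648-55492897, minus strand: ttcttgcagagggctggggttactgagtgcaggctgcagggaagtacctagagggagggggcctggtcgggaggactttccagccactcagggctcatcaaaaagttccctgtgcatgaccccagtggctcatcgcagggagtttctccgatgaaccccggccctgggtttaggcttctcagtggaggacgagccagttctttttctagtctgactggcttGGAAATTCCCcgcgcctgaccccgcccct
Nfkbie, chr17:45555450-45555699, plus strand: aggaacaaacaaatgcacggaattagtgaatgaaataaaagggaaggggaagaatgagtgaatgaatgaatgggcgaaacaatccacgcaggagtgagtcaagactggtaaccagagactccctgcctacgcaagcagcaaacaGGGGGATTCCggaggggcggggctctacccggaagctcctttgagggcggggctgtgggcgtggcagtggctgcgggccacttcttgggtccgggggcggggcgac
Tnfaip3, chr10:19015411-19015660, minus strand: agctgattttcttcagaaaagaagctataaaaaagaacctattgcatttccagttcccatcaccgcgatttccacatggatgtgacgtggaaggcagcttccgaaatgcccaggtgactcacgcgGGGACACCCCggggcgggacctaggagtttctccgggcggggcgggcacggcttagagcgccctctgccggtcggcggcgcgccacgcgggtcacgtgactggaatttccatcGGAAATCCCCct
Nfkb2, chr19:46304487-46304736, plus strand: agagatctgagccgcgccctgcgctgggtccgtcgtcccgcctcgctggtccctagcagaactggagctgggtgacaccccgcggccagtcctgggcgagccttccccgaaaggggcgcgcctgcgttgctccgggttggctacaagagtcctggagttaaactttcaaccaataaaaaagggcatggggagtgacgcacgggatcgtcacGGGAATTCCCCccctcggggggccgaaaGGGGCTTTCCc

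The match of Nfkbia lay 29 to 20 bases before the start site and that of Nfkbie 106 to 97. Tnfaip3 had matches at 125 to 116 and 12 to 3 bases, and Nfkb2 at 39 to 29 and 11 to 2 bases. Tnfaip3 and Nfkb2 each have further windows, of which 2 of Nfkb2 hold a match and 1 of Tnfaip3 does not. The interferon-stimulated response element, searched as GAAANNGAAA on both strands, was in 2.98% of all windows and in none of the 11 windows of the NF-κB genes. At so low a share, 11 windows are too few to show a difference. It was in 6.45% of the windows of the targets and 4.08% of those of the signalling genes. A match is a stretch of letters, and binding was not measured here. Of the genes called higher, Nfkbia, Nfkbie and Tnfaip3 held the consensus, Rela did not and Relb had no window, while Nfkb2, which did not pass, and Rel, which was not tested, also held it.

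The other genes of the pathway were taken from a list of 40 signalling genes, all of which were tested. The Pak1-/- label went with 14 higher and 7 lower genes, against 22.8% higher and 28.2% lower among all genes tested. In either direction 21 of the 40 were called, near the 51.0% of all genes. The median log2 difference was 0.14, against −0.055 over all genes. The count of lower genes was 4 without either of the arrays labelled Pak1+/+. Among the 21 adaptors and ubiquitin ligases, 10 were higher and 2 (Irak1 and Tank) lower, to be read against the same 22.8% and 28.2%. The largest rise was that of Rnf31, the catalytic subunit of the linear ubiquitin ligase, which read 13.78 and 13.60 against 12.45 and 12.60, a difference of 1.17 (adjusted p = 0.0012). A second Rnf31 probe gave 1.12. The TNF receptor adaptors Traf5 (1.16), Traf2 (0.94) and Traf3 (0.74) followed, all without overlap between the groups, as for 77.6% of all genes (highest adjusted p = 0.0047).

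Of 6 listed genes of the IKK complex and related kinases, 1 (Ikbkg) was higher and 2 (Map3k7 and Tbk1) were lower. Among all genes tested, 22.8% were higher and 28.2% lower. The IKK catalytic subunits Chuk (−0.20) and Ikbkb (0.26) did not pass (adjusted p = 0.074 and 0.092), while the scaffold Ikbkg was higher (0.45, adjusted p = 0.0077) and its second probe gave the same value. Map3k14 did not pass by its brightest probe (0.088, adjusted p = 0.62), but its second probe was higher (0.71, adjusted p = 0.012). Map3k7 (TAK1), which activates IKK, was lower by its brightest probe (−0.59, adjusted p = 0.0039), but of its other probes 1 was lower (−0.36) and 1 pointed up without passing (0.19). Tbk1, the closest relative of Ikbke, was lower as Ikbke was (−0.34, adjusted p = 0.017), and so was Tank, an adaptor that binds both (−0.37, adjusted p = 0.012). Irak1, a kinase of interleukin-1 and Toll-like receptor signalling, was lower by all 3 probes (−0.78, −0.77 and −0.79).

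Among 4 genes listed as nuclear IκB proteins, Nfkbid was lower (−0.57, adjusted p = 0.0033). Bcl3 (−0.21), Nfkbiz (0.34) and Nfkbil1 (0.23) did not pass. Of 9 negative regulators, Itch (0.59), N4bp1 (0.67) and Tnip1 (0.55), a partner of A20, were higher, and Otulin (−0.42) and Irak3 were lower, so that 5 of 9 were called, near the 51.0% of all genes. Irak3, a kinase-dead inhibitor of interleukin-1 and Toll-like receptor signalling, read 9.05 and 9.31 against 11.11 and 11.00. That difference of −1.88 (adjusted p = 0.00053) was the largest fall among the 40 genes.

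Known NF-κB targets outside the 10 genes went both ways. Of 38 on the list, 37 had a probe (all but Bcl2a1a) and 33 were tested, of which 16 were higher and 8 lower, against 22.8% and 28.2% of all genes tested, with a median log2 difference of 0.13 (−0.055 over all genes). Some of the 16 passed the filter on dim probes only through the group in which they were high, and 13 were higher and 8 lower where a probe had to be well above background on all 4 arrays. Fewer genes were tested under that filter, and over all probes 5612 of 13423 calls were higher, against 6349 of 14132. Ccl7, Ccl20, Il1b and Mmp9 were too dim to test. The largest rise was that of Cxcl10, a chemokine also induced by interferon, which read 11.72 and 12.18 in the arrays labelled Pak1-/- and 7.23 on both labelled Pak1+/+ (4.72, adjusted p = 0.00015). On the latter arrays the probe was well above background on 1 of 2. Ccl5, likewise a target of both pathways, rose by 4.52. The acute-phase gene Saa3 rose by 3.72 and Ptgs2, which encodes cyclooxygenase-2, by 3.41, both without overlap (highest adjusted p = 0.00059).

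Of the 13 chemokines and cytokines tested, 6 were higher (Cxcl10, Ccl5, Tnf, Il1a, Csf1 and Ltb) and 4 lower. Among all genes tested, 22.8% were higher and 28.2% lower. The 4 lower genes had the largest falls among the targets, while Cxcl10 and Ccl5 had the largest rises. The chemokine Ccl2 read 7.72 and 7.46 against 10.34 and 10.41, a difference of −2.79 (adjusted p = 0.00019). The granulocyte factor Csf3 (−1.97), the neutrophil chemokine Cxcl5 (−1.20) and the growth factor Csf2 (−0.97) were also lower (highest adjusted p = 0.0058). The pathway's own ligand Tnf was higher (1.53, adjusted p = 0.00050), as was the macrophage factor Csf1 by all 3 of its probes (1.46 to 1.54). Il6 (0.0056) and Cxcl1 (−0.19) did not pass.

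Of the 8 survival and signalling targets tested, 5 were called, near the 51.0% of all genes. Birc3 (1.01), Gadd45b (0.68) and Irf1 (1.18) were higher and Bcl2l1 (−0.88) and Ier3 (−0.59) lower. For a second, much dimmer probe of Irf1 the groups overlapped and the difference did not pass (adjusted p = 0.30). Of the 12 adhesion, enzyme and secreted targets tested, 7 were higher, Icam1 among them, and 2, Cfb (−0.95) and Pigr (−0.54), were lower, beside the same 22.8% and 28.2% of all genes. A second, dimmer probe of Pigr was higher (1.13). The files place the brighter Pigr probe on chromosome X and the dimmer one on chromosome 1, so the value for Pigr is uncertain. Il1a and Icam1 were well above background in the arrays labelled Pak1-/- alone, and were at least 1.88-fold and 1.85-fold higher there. With both at their bound the median over the targets was 0.13, as it must be, since both bounds lie above it. Lcn2 was saturated on all 4 arrays and no difference can be read from it, although it stands among the 33 targets counted as tested and among those that did not pass.

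**Figure D3:**
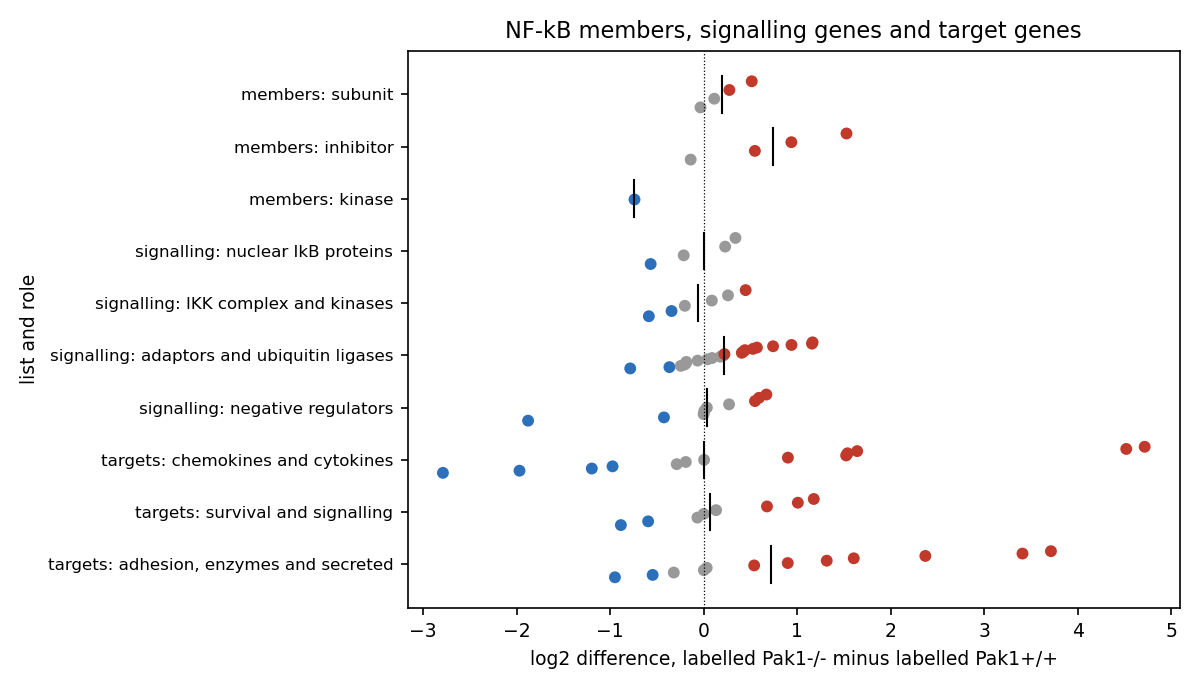
Log2 difference between the groups (x axis, labelled Pak1-/- minus labelled Pak1+/+) of each tested gene by its brightest probe, in rows by list and role (y axis): red points passed the threshold upwards, blue downwards, grey did not pass, and black bars are row medians. The chemokine and cytokine row spans −2.79 to 4.72, while the NF-κB subunits lie between −0.033 and 0.52.

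The genes with a pattern most like the largest rise and the only fall were found by the Euclidean distance of the 4 array values after each probe's own mean was subtracted. Over 4 arrays and 21960 other genes this is a description, with no test. Nearest to Nfkbie were Trim7 (distance 0.035), the gene model EG666174 (0.052) and H2-Q2 (0.053), a class I major histocompatibility gene whose close relatives can share its signal. Nearest to Ikbke were a transcript without a symbol (0.033), Catsper2 (0.038) and Rhbdd3 (0.040).

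The values held to different degrees when other processing was used. Nfkbie (1.41 to 1.64), Nfkbia (0.82 to 1.02), Rela (0.38 to 0.62) and Ikbke (−0.81 to −0.66) passed under all 16 alternatives, which included leaving out each array. Tnfaip3 passed under 14 and Relb under 6. Nfkb1, Nfkb2 and Nfkbib passed under none.

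**Figure D4:**
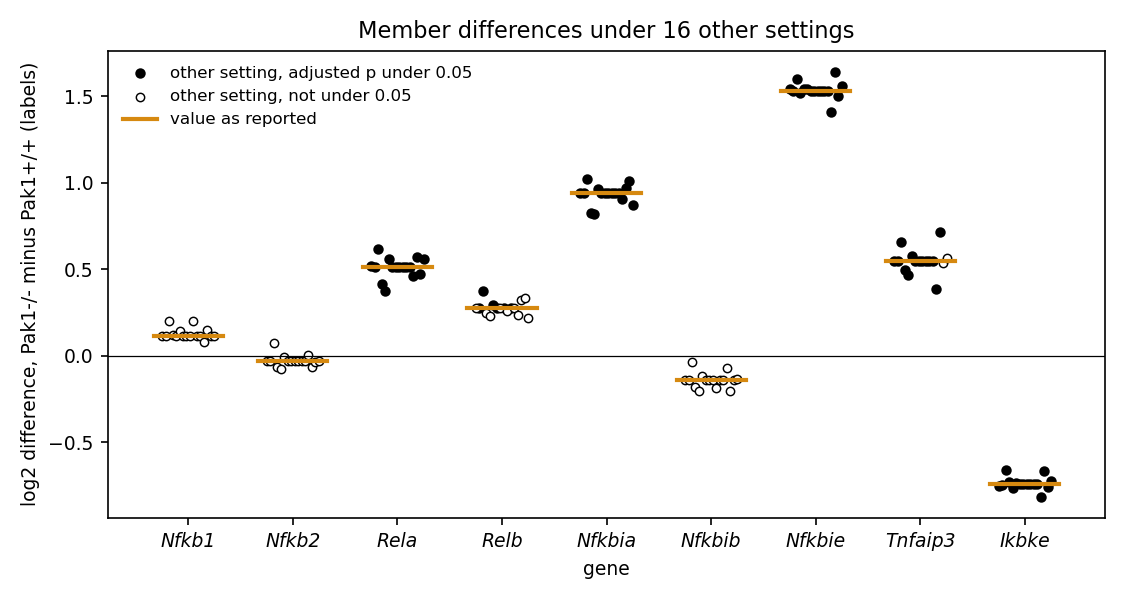
Log2 difference (y axis, labelled Pak1-/- minus labelled Pak1+/+) of each of the 9 tested genes (x axis): orange bars are the values as reported and points the 16 alternatives, filled where the adjusted p was under 0.05. The points of Nfkbie, Nfkbia, Rela and Ikbke are all filled, 6 of the 16 for Relb are, and those of Nfkb2 lie on both sides of 0.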

How the data were processed

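Total RNA (0.5 µg) of 4 samples was labelled with Cy3 and measured on 1-colour Agilent mouse arrays. The scanner output is, per the file headers, raw spot intensity with quality flags, written by Feature Extraction 9.5.3.1 (9.5 in the submitters' processing notes) with no normalization across arrays. A second file from the authors gives log2 values, described as normexp corrected and quantile normalized, which was used as an alternative (24008 of 39485 rows had values).

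Here, mean spot intensities were background corrected with normexp (limma 3.58.1, R 4.3.3; offset 50, set here), control spots were left out, and log2 values were quantile normalized. Outlier spots were set aside and the spots of a probe averaged; the NF-κB probes had 1 spot each and none was flagged. Probes well above background on at least 2 arrays were kept (27229). Groups were compared with lmFit and eBayes (two-sided, 2 residual degrees of freedom, prior 2.62), with Benjamini-Hochberg adjustment over all probes kept and a threshold of 0.05. A permutation test of 2 against 2 cannot go below p = 0.333. The offset understates changes of dim probes, and the number of arrays limits precision. A probe dim in a whole group has only a bound there. The steps were tested on simulated data.

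The 10 genes and the lists were chosen with earlier results of these data known. One gene was later left out of the interferon-induced list for a reason unrelated to its value and is not reported here. Named genes were all probes of the 10, and the 4 largest called rises and falls of each list; genes named beyond these were chosen after their values were seen, or belong to small counts. Probe positions are the files' own, on mm9; no mm9 annotation of exons and UTRs was used here.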

Additional observations from a re-analysis of the deposited data

How the results depend on the processing

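Of the 9 tested genes, 6 kept their direction and their side of the threshold under all 16 alternatives. Nfkb2 turned sign under cyclic loess (0.073) and without Pak1-/- replicate 1 (0.0021), with −0.068 to 0.0021 when 1 array was left out. The cause was not tested. At adjusted p under 0.01, 3 NF-κB genes were higher, 9 signalling genes higher and 4 lower, and 8878 probes passed. At adjusted p under 0.05 with at least a 2-fold difference, 1 NF-κB gene was higher and 0 lower, 2 signalling genes were higher and 1 lower, 12 targets were higher and 3 lower, and 3413 probes passed, since both rules are stricter. With 1 array left out, 3 to 4 NF-κB genes were higher and 1 lower, 10 to 13 signalling genes higher and 4 to 6 lower, 13 to 16 targets higher and 7 to 8 lower, and 10312 to 12168 probes passed; the lone array of a group was then taken to vary like the others. The replicate numbers are not stated to pair samples, and over all probes, which are not independent, replicate 1 minus replicate 2 in one group had r = −0.028 with the same in the other. Under a replicate block, 13202 probes passed, and 4 NF-κB genes were higher and 1 lower, since Relb had an adjusted p of 0.055. Higher calls made up 44.9% of probes called, and 52.4% under cyclic loess. Signal over background limits Rel, which was well above background on 1 array.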
